A study of Arabidopsis thaliana with 5 samples.

Results

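The JAZ genes of Arabidopsis thaliana encode the JASMONATE ZIM-DOMAIN proteins, the repressors of jasmonate signalling. The genes described here are JAZ1, JAZ2, JAZ3, JAZ5, JAZ6, JAZ7, JAZ8, JAZ9, JAZ10 and JAZ12, chosen as a list of 10 loci and found on the arrays through the RefSeq transcript accession of each probe. All 10 were measured, by 13 probes of the 43603 on the array, and all 10 passed the filter on dim probes, among 26649 genes and unnamed transcripts tested. Whole seedlings, 12 days old and raised in long days on MS medium, gave the RNA, which was hybridised to 1-colour Agilent arrays. The groups were wild type, with 2 arrays, and the mutant Atino80-5, with 3 arrays. The mutant is named for INO80, the ATPase of a chromatin remodelling complex. The lesion in Atino80-5 and the accession of the wild type were not given in the sources used here. Nothing in the labels shows that seedlings were grown separately for each array, so p-values here reflect only the spread between arrays, which may be technical.

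Jasmonates are lipid-derived hormones that plants make on wounding, on insect attack and during development. In the resting state JAZ proteins bind MYC2 and related transcription factors and, through the adaptor NINJA, recruit the corepressor TOPLESS. The conjugate of jasmonate with isoleucine joins JAZ proteins to the receptor COI1, an F-box protein, which leads to their ubiquitination and degradation and frees the factors. Most JAZ genes are themselves targets of MYC2, so that a response is followed by new repressor, and their transcripts serve as early markers of jasmonate and wound responses in leaves and seedlings.

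On each array 77.3% to 81.6% of probes were well above background, and the 75th percentile of the processed signal, to which each array was scaled, lay between 4478 and 4805. Slide 1 carried both wild type arrays with the first and second mutant arrays, and slide 2 carried Atino80-5 array 3. In processed signal, the INO80 (AT3G57300) probe A_84_P20358 read 9438 and 9289 in wild type against 62.2, 55.0 and 62.9 in the mutant. The gene's other probe, A_84_P835513, moved the other way, with a log2 change of 1.90 ± 0.058 (SE), and where either probe lies relative to the lesion is not known here. All 6 leaf markers were well above background on all 5 arrays, and 10 or 11 of 11 root markers were on each array. So were 5 to 7 of 7 flower markers and 4 to 9 of 9 seed markers. Detection alone therefore does not check the labelled tissue.

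Transcripts of most of the 10 JAZ genes were higher in Atino80-5. Of the 10, 8 passed the threshold as higher, JAZ12 passed it as lower, and JAZ9 did not pass it. Across all genes tested 57.2% passed in either direction, 30.7% as higher and 26.4% as lower (limma, adjusted p under 0.05 by the method of Benjamini and Hochberg). The median log2 change of the 10 was 0.26, against 0.0071 over all genes, and the changes ran from -0.23 to 2.06. JAZ8 and JAZ5 rose by at least 2-fold, a size of increase that 4.61% of all genes reached with a call. For 9 of the 10 every mutant array was above every wild type array, as for 38.8% of all genes, and for JAZ12 every one was below, as for 35.8%. Over both directions 74.6% of all genes were without overlap. In RNA of whole seedlings, fewer cells of a type and less RNA per cell cannot be told apart. Levels of different JAZ genes were not ranked, since array probes differ in response.

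**Figure D1:**
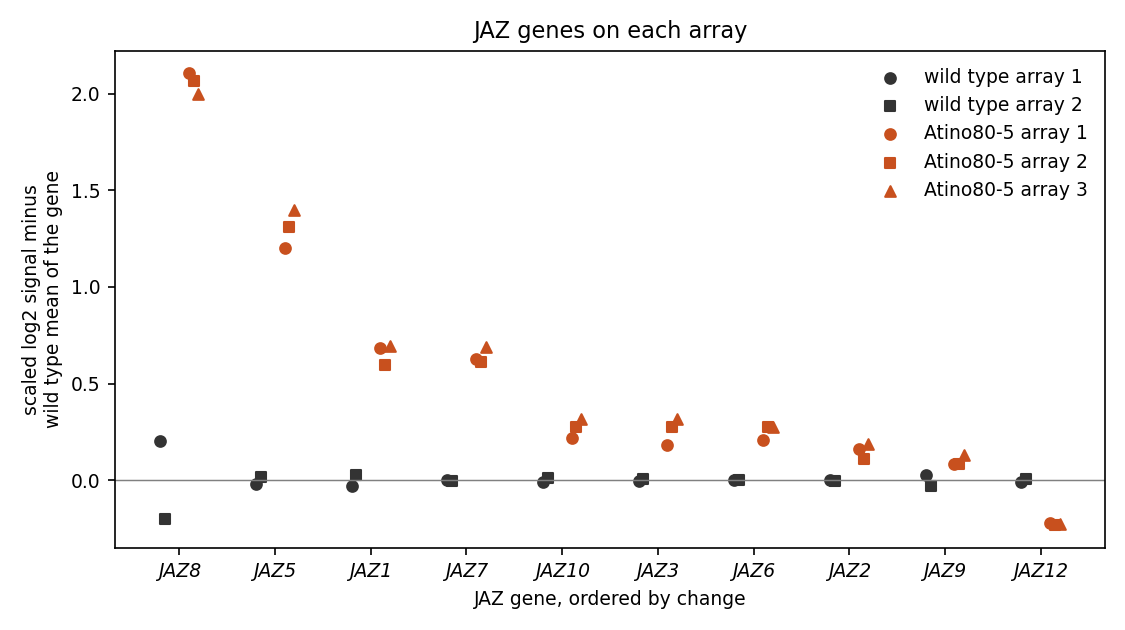
The scaled log2 signal of each JAZ gene on each of the 5 arrays is plotted as its difference from the gene's wild type mean, with genes ordered by their mean change. The Atino80-5 points lie above the wild type points for 9 genes and below them for JAZ12, and the wild type arrays stand farthest apart for JAZ8.

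JAZ8 (AT1G30135) had the largest change of the 10. The JAZ8 protein lacks the canonical degron for COI1, resists jasmonate-triggered degradation and carries an EAR motif that binds TOPLESS directly. In processed signal, as for all array values below, its probe read 143 and 108 in wild type against 533, 538 and 532 in Atino80-5. The wild type arrays differed from each other more than for any other of the 10, while the 3 mutant arrays lay close together and far above both. The log2 change was 2.06 ± 0.13 (moderated SE from 2 wild type and 3 mutant arrays), a 4.16-fold rise (adjusted p = 0.00034, limma). A larger increase was found for 0.848% of all genes tested. Without wild type array 1 the log2 change was 2.26, and without wild type array 2 it was 1.86. JAZ7 (AT2G34600), the close relative of JAZ8, also encodes a JAZ protein with an EAR motif and without the canonical degron. It read 689 and 686 in wild type against 1056, 1085 and 1184 in the mutant. The wild type values were nearly equal, and each mutant value stood clear of them. JAZ7 rose by 0.64 ± 0.034, or 1.56-fold (adjusted p = 0.00022, limma).

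JAZ5 (AT1G17380) and JAZ6 (AT1G72450) are a sister pair of the family. JAZ5 read 221 and 226 in wild type against 510.1, 572 and 629 in Atino80-5. All mutant arrays were more than 2-fold above both wild type arrays, and they spread more among themselves than the wild type arrays did. JAZ5 rose by 1.30 ± 0.066, or 2.47-fold (adjusted p = 0.0002, limma), and 2.82% of all genes rose more. JAZ6, which has been linked to the daily rhythm of resistance to the fungus Botrytis, read 15032 and 15004 in wild type against 17292, 18768 and 19436 in the mutant on the probe that represents the gene. Its increase was small and without overlap, 0.25 ± 0.033 or 1.19-fold (adjusted p = 0.0033, limma). The other JAZ6 probe, A_84_P255510, gave 12868 and 12782 against 15198, 14499.7 and 15483, a log2 change of 0.19 ± 0.044 (adjusted p over probes = 0.021, limma).

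JAZ1 (AT1G19180), among the JAZ proteins best studied for binding to COI1 and MYC2, read 8895 and 9245 in wild type against 14485, 14150.4 and 15655 in Atino80-5. All mutant arrays lay well above wild type. The transcript rose by 0.66 ± 0.043, or 1.58-fold (adjusted p = 0.0004, limma). JAZ2 (AT1G74950), its sister gene, whose product acts in guard cells, read 4176 and 4154 in wild type against 4638, 4643 and 5058 in the mutant. Its values did not overlap, but the step was small. JAZ2 rose by 0.15 ± 0.033, or 1.11-fold (adjusted p = 0.016, limma), while 32.0% of all genes rose more. This call was lost with each array scaled by its median (log2 change 0.094, adjusted p = 0.053) and without wild type array 1 or 2 (adjusted p = 0.075 and 0.079).

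JAZ10 (AT5G13220) produces splice forms that differ in how readily jasmonate destroys the protein, and it dampens the response once started. The probe that represents it read 1112 and 1126 in wild type against 1297, 1395 and 1488 in Atino80-5. The other probe, A_84_P823221, designed from another transcript of the gene, had 533 and 597 against 667, 670.3 and 728. On both probes every mutant array was above every wild type array, and the increases were alike, 0.27 ± 0.038 (adjusted p = 0.0042, limma) and 0.24 ± 0.059 (adjusted p over probes = 0.023, limma). Which splice forms each probe detects is not known here.

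JAZ3 (AT3G17860), the gene altered in the jasmonate-insensitive mutant jai3, read 803 and 806 in wild type against 907, 1005 and 1072 in Atino80-5. The wild type values were nearly equal, and the mutant values rose above them by unequal amounts. JAZ3 rose by 0.26 ± 0.049, with an adjusted p of 0.011 (limma). Without wild type array 1 or 2 the adjusted p was 0.06 and 0.054. JAZ9 (AT1G70700), of the same branch of the family, read 14383 and 13795 in wild type against 14891, 15413.5 and 16493 in the mutant. Its log2 difference was 0.10 ± 0.034 and missed the threshold (adjusted p = 0.056, limma). JAZ9 passed it with quantile normalization (0.14, adjusted p = 0.019), in the authors' value table (0.15, adjusted p = 0.019) and with trended and robust moderation (adjusted p = 0.017).

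JAZ12 (AT5G20900) was the gene called lower among the 10. The stability of its protein depends on the ubiquitin ligase KEEP ON GOING, which also acts in abscisic acid signalling. The probe that represents the gene read 30959.7 and 31270.5 in wild type against 26546, 27311 and 28396 in Atino80-5. The other probe, A_84_P176584, had 20379 and 19855.5 against 17765, 17386 and 18112. On both probes all mutant arrays were below all wild type arrays. The transcript fell by 0.23 ± 0.024, to a level 1.17-fold lower (adjusted p = 0.0017, limma), and by 0.22 ± 0.038 on the other probe (adjusted p over probes = 0.0074, limma). This decrease held its call in all 16 alternative settings, with log2 changes from -0.29 to -0.17.

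**Figure D2:**
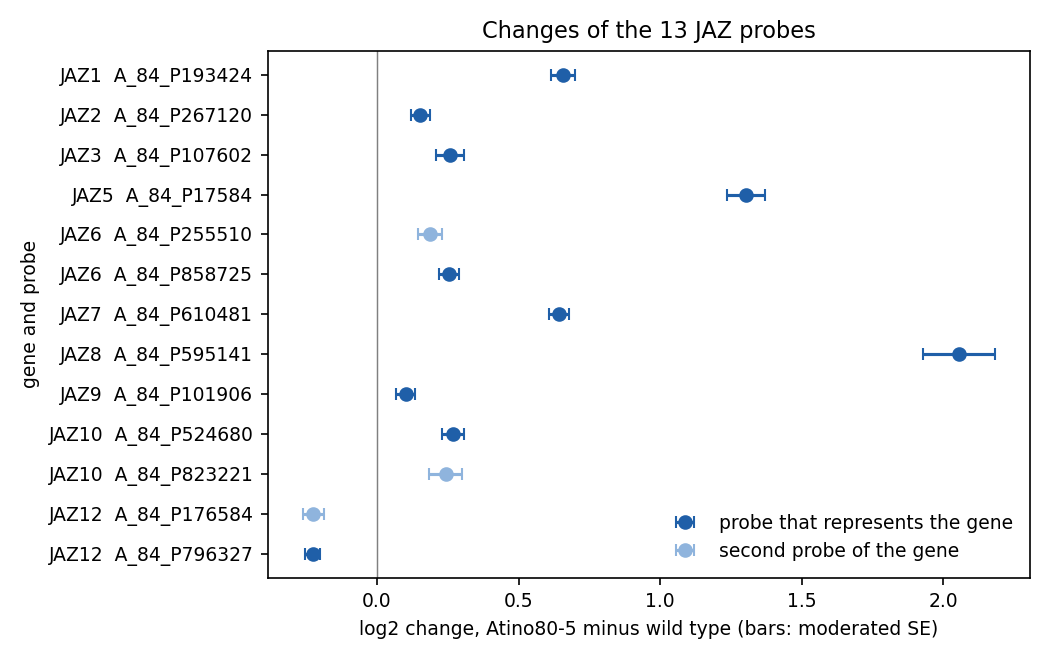
The log2 change of each of the 13 JAZ probes, Atino80-5 minus wild type, is plotted with its moderated SE as the bar. The paired probes of JAZ6, JAZ10 and JAZ12 lie on the same side of zero as each other, and JAZ12 is the gene whose probes lie below it.

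Within the family, close relatives changed by different amounts. The log2 ratio of the members of a pair was fitted beside all genes for 4 pairs, so that the scaling of the arrays cancels. Differences between probes in response and background do not cancel. JAZ5 rose by 1.05 ± 0.048 more than JAZ6 (adjusted p = 0.00015, limma), and JAZ1 rose by 0.50 ± 0.032 more than JAZ2 (adjusted p = 0.00037, limma). The change of JAZ7 minus that of JAZ8 was -1.41 ± 0.13 (adjusted p = 0.0012, limma). These 3 differences kept their call and direction in all 16 alternatives, with the smallest sizes for JAZ5 and JAZ6 (0.75) and for JAZ7 and JAZ8 (-1.04) under normexp background correction. Some of the alternatives leave the differences as reported and so test only the call. The difference between JAZ3 and JAZ9, 0.16 ± 0.046 (adjusted p = 0.039, limma), was called in 7 of the 16 alternatives and was 0.057 with quantile normalization (adjusted p = 0.3). It was not called without wild type array 1 or 2 or Atino80-5 array 2 or 3 (0.12, 0.19, 0.14 and 0.14). The pairs were compared after the values of their members were known.

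Atino80-5 array 3, alone on slide 2, was the highest of the mutant arrays for 7 of the 10 JAZ genes, and for 35.3% of all genes. Within slide 1, with 2 arrays of each genotype, the log2 changes were 2.09 for JAZ8, 1.26 for JAZ5, 0.64 for JAZ1, 0.62 for JAZ7, 0.25 for JAZ10, 0.24 for JAZ6, 0.23 for JAZ3, 0.14 for JAZ2, 0.086 for JAZ9 and -0.23 for JAZ12. With slide entered as a block these values must be the same, since array 3 is alone on its slide, so that setting is no separate check. In both cases 8 JAZ genes were called higher and 1 lower.

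**Figure D3:**
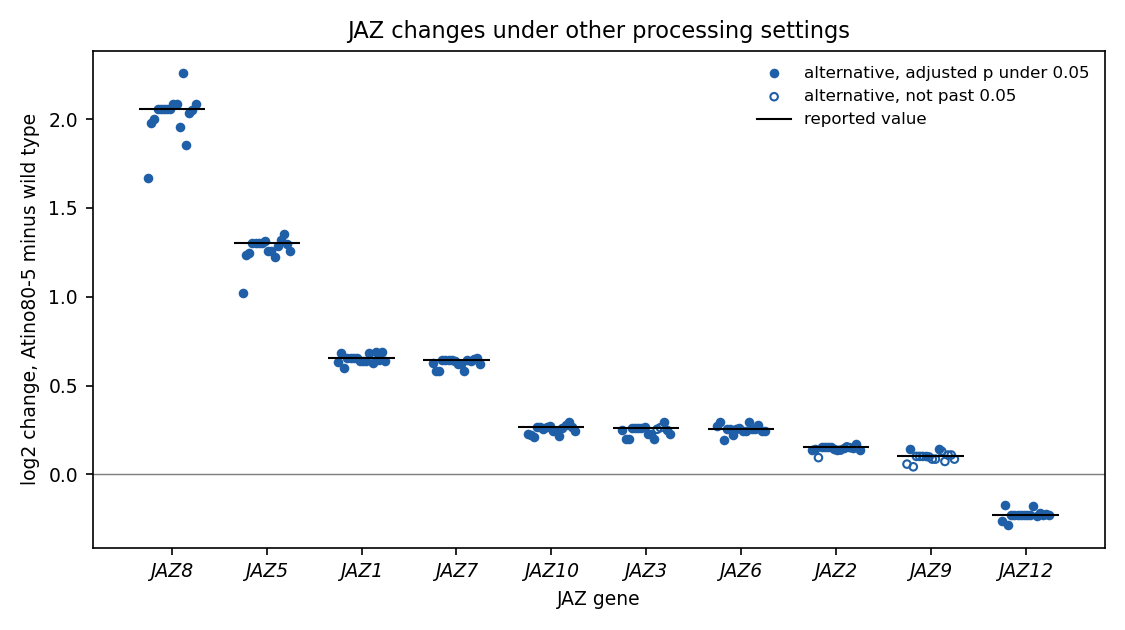
The log2 change of each JAZ gene is plotted under 16 alternative settings (points, filled where the adjusted p is under 0.05) beside the reported value (line). No point crosses zero, JAZ8 and JAZ5 have their lowest points with normexp background correction, at 1.67 and 1.02, and the open points belong to JAZ2, JAZ3 and JAZ9. Some settings leave the log2 changes as reported and so test only the call.

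The other genes of the TIFY family, which share the TIFY motif with the 10, were called in both directions. Among them are JAZ4, JAZ11 and JAZ13, which are JAZ genes outside the 10. Of 9 tested, 4 were higher, 2 lower and 3 not called, with a median log2 change of 0.037. This is 66.7% called, against 57.2% of all genes (30.7% higher, 26.4% lower). PPD1 and PPD2, which limit the proliferation of leaf cells, rose by 0.53 ± 0.040 (adjusted p = 0.00059, limma) and 0.23 ± 0.033. JAZ4, of the branch of JAZ3 and JAZ9, rose by 0.37 ± 0.077, a call lost with the mean of its probes (adjusted p = 0.069) and without wild type array 2 (adjusted p = 0.075). ZIM, a GATA-type factor, rose by 0.20 ± 0.034, with an adjusted p of 0.051 without wild type array 1. TIFY8 fell by 0.22 ± 0.029 and JAZ11 fell by 0.11 ± 0.027, the latter call being lost in 9 of the 16 alternatives, among them the removal of any of the 5 arrays. JAZ13 was well above background on 1 array of each genotype and was not called.

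Of 9 genes tested of the machinery that reads jasmonate and holds JAZ targets silent, 0 were higher, 4 lower and 5 not called by limma, or 44.4% called against 57.2% of all genes (30.7% higher, 26.4% lower). The median log2 change was -0.057, and 0 were higher at an unadjusted p under 0.05. COI1, the receptor, read 4780 and 5037 in wild type against 4795, 4826 and 4974 in Atino80-5, so the genotypes overlapped (log2 difference -0.057, adjusted p = 0.25, limma). NINJA and TPL (TOPLESS) had log2 differences of -0.040 and 0.16 and were not called. The histone deacetylase genes HDA6 and HDA19 were not called either. ASK1 and ASK2, which link the F-box protein to the ubiquitin ligase, fell by 0.27 ± 0.036 and 0.14 ± 0.029. CUL1, the scaffold of that ligase, fell by 0.13 ± 0.033 and MED25, the Mediator subunit that binds MYC2, fell by 0.10 ± 0.024. The call of ASK2 was lost without wild type array 1 or 2, and those of CUL1 and MED25 without either of these or without Atino80-5 array 2 or 3.

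Among transcription factors that JAZ proteins bind, the largest called changes were those of TT8 and MYC2. MYC2 (AT1G32640), the central activator of jasmonate responses, read 17356 and 17148 in wild type against 27862, 32480.3 and 33874 in Atino80-5. The groups stood clearly apart, and MYC2 rose by 0.81 ± 0.066, or 1.76-fold (adjusted p = 0.00072, limma). Its relative MYC3 had a log2 difference of -0.018 and was not called, and MYC4 rose by 0.18 ± 0.040 on its brighter probe, with 0.0061 for the mean of its probes (adjusted p = 0.96). TT8, a regulator of anthocyanin and seed coat pigment, rose by 1.55 ± 0.062 (adjusted p = 0.00011, limma). EGL3, of the trichome and anthocyanin pathway, rose by 0.20 ± 0.044. EGL3 was not called for the mean of its probes (adjusted p = 0.27, limma) or without wild type array 1 or Atino80-5 array 2. Nor was it called with quantile normalization, median scaling or the authors' value table (log2 changes 0.12, 0.14 and 0.13). JAM1, a factor that opposes MYC2 at shared targets, fell by 0.20 ± 0.041. EIN3 and EIL1, the activators of ethylene responses, fell by 0.18 ± 0.026 and 0.16 ± 0.033. Of the 14 tested on this list, 4 were higher, 3 lower and 7 not called, with a median of -0.051. This is 50% called, against 57.2% of all genes (30.7% higher, 26.4% lower). The calls of JAM1, EIL1 and MYC4 were lost without wild type array 1 or 2.

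Genes of jasmonate synthesis changed in both directions. Of 13 tested, 7 were higher, 3 lower and 3 not called, with a median log2 change of 0.13. This is 76.9% called, against 57.2% of all genes (30.7% higher, 26.4% lower). LOX3 (AT1G17420) and LOX4 (AT1G72520), 13-lipoxygenases that start the pathway, rose by 1.69 ± 0.025 and 1.002 ± 0.034, and LOX6 rose by 0.16 ± 0.041. AOC3, an allene oxide cyclase gene, read 84.4 and 83.1 in wild type against 219, 210.3 and 234 in the mutant, a rise of 1.36 ± 0.045 (adjusted p = 7.3e-05, limma). OPCL1, which activates a later intermediate, rose by 0.68 ± 0.027, AOS, the allene oxide synthase gene, by 0.31 ± 0.025 and OPR3, the reductase gene, by 0.13 ± 0.036. LOX2, the abundant lipoxygenase of leaves, fell by 0.57 ± 0.033, AOC1 fell by 0.56 ± 0.038 and JAR1, the enzyme that makes the isoleucine conjugate, fell by 0.19 ± 0.034. The call of JAR1 was lost without wild type array 1 or 2. That of LOX6 was lost without either of these or without Atino80-5 array 1 or 2, and that of OPR3 without wild type array 1 or any mutant array. Both calls were also lost with median scaling (log2 changes 0.099 and 0.067), without the filter and with the replicate block. That of LOX6 was lost with quantile normalization and the authors' value table too, and that of OPR3 with the slide block. JAZ5 and LOX3 are neighbours on chromosome 1 with 2 protein-coding genes between them, and JAZ6 and LOX4 lie on the same chromosome with 6 between them.

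Genes of jasmonate breakdown included the largest called change of any jasmonate gene listed. CYP94B3 (AT3G48520), which hydroxylates the isoleucine conjugate, read 343 and 324 in wild type against 2362, 2410.07 and 2604 in Atino80-5. The mutant arrays were several-fold above wild type, and the transcript rose by 2.84 ± 0.038, or 7.14-fold (adjusted p = 2.2e-05, limma). CYP94B1 and CYP94C1, which act in the same oxidation pathway, rose by 0.50 ± 0.044 and 0.38 ± 0.045. ST2A, a sulfotransferase for hydroxyjasmonate, rose by 1.10 ± 0.11, and JOX3, which hydroxylates jasmonic acid itself, rose by 0.45 ± 0.047. IAR3 and ILL6, amidohydrolases that split the conjugate, both fell by 0.14, and both calls were lost without wild type array 1 or 2. Of 9 tested, 5 were higher, 2 lower and 2 not called, and the median was 0.38. This is 77.8% called, against 57.2% of all genes (30.7% higher, 26.4% lower).

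Downstream markers of the response were called in both directions. Of 9 tested, 3 were higher, 3 lower and 3 not called. This is 66.7% called, against 57.2% of all genes (30.7% higher, 26.4% lower). PDF1.2, the defensin gene of the branch shared with ethylene, rose by 2.48 ± 0.058 (adjusted p = 3.8e-05, limma), ERF1, a transcription factor of that branch, by 0.32 ± 0.042, and JR1, a lectin-like gene, by 0.46 ± 0.026. VSP1 and VSP2, vegetative storage protein genes of the MYC branch, fell by 0.53 ± 0.037 and 0.57 ± 0.047, and CORI3, a cystine lyase gene, fell by 1.09 ± 0.046 (adjusted p = 0.00012, limma). THI2.1, a thionin gene, was above background on no wild type array and on 2 mutant arrays, and was not called. Over the 6 jasmonate lists together 40 of 63 genes tested were called, or 63.5%, with 23 higher and 17 lower. Across all genes 57.2% were called, 30.7% as higher and 26.4% as lower. All lists were written with earlier results of these data known.

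**Figure D4:**
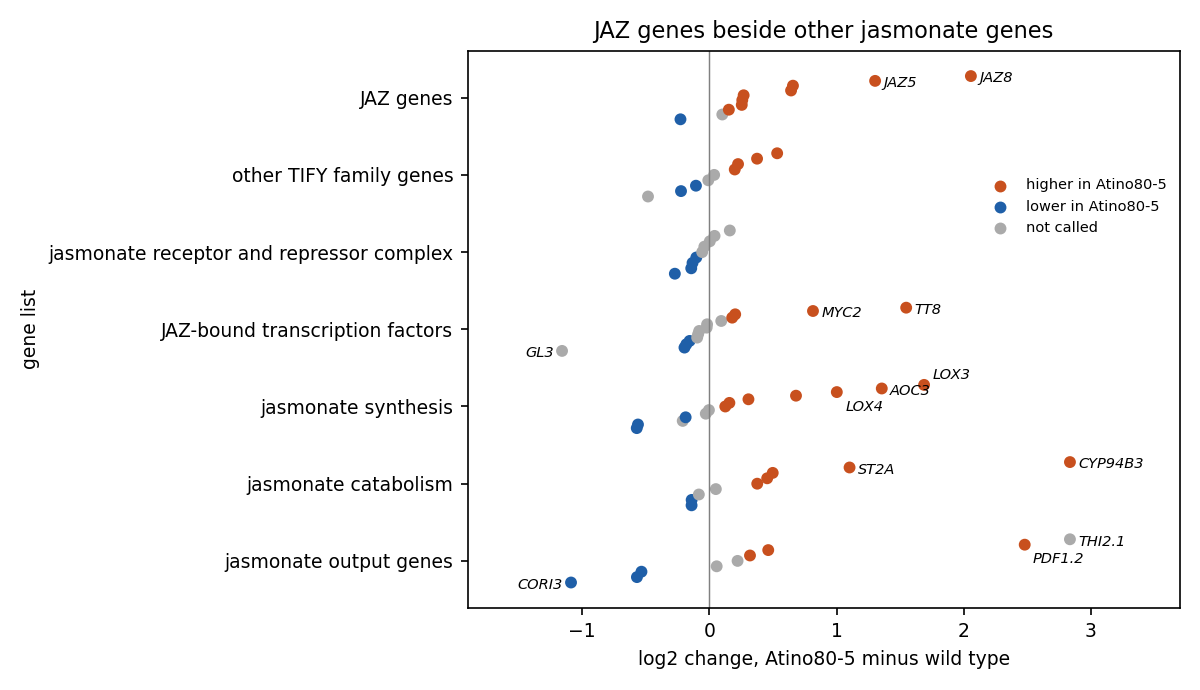
Each point is the log2 change of a gene, Atino80-5 minus wild type, with a row for each list and colours for the call. The JAZ row lies mostly right of zero, the receptor and repressor row lies close to zero, and the synthesis, breakdown and output rows spread to both sides.

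JAZ genes respond fast to touch and wounding, and other genes of such early responses moved with them. All 11 early touch and wound genes tested were higher, with a median log2 change of 1.01, where 30.7% of all genes were higher and 26.4% lower. RRTF1, a redox-responsive ERF, rose by 3.05 ± 0.027 and ZAT12, a zinc finger gene, rose by 1.61 ± 0.030. The summed scaled signal of all 11 genes, in multiples of the 75th percentile, was 39.5 to 39.9 in wild type and 77.7 to 78.4 in Atino80-5. Clock genes moved as well. All 4 morning genes were higher, among them LHY by 1.18 ± 0.043 and CCA1 by 0.61 ± 0.027, with sums of 3.48 to 3.52 in wild type and 5.82 to 6.07 in the mutant. Of 6 evening genes, 5 were lower and 1 not called, with LUX at -0.63 ± 0.041 and ELF4 at -0.40 ± 0.029, and sums of 21.0 to 21.4 against 15.9 to 16.6. The part of handling or of the hour of harvest in the JAZ changes was not tested.

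Organ markers were called in both directions, as were 57.2% of all genes (30.7% higher, 26.4% lower). Of 11 root markers, 8 were higher and 2 lower, with PLT2, a root meristem regulator, and EXPA18, a root hair expansin, at 1.09 ± 0.026 and 1.25 ± 0.045, and summed scaled signals of 2.89 to 2.96 in wild type and 3.39 to 3.42 in Atino80-5. Of 7 flower markers, 5 were higher and 1 lower, with SEP1 and PI at 1.18 ± 0.034 and 1.16 ± 0.034, and sums of 1.004 to 1.01 against 1.73 on each mutant array. Of 9 seed storage and maturation markers, 6 were called higher and 1 lower, with CRA1 at 1.18 ± 0.068. CRU2, SESA1, SESA3 and OLEO1 were well above background on no wild type array. They passed the filter only through mutant arrays, so the filter itself favours the count of higher seed markers. For CRU2 the rise was at least 3.76-fold. The probe that represents CRU3 read 31.2 and 7.11 in wild type against 137, 170 and 170 in Atino80-5, a rise of 3.37 ± 0.65. Without Atino80-5 array 1, 2 or 3 the other CRU3 probe took its place, with log2 changes of 0.40, 0.16 and 0.27 and no call. The rise of CRU3 therefore rests on the choice of probe. The seed sums were 0.068 to 0.081 against 0.17 to 0.18. The markers that fell were WOX5, of the root stem cell niche, at -1.50 ± 0.063, SCR, of the root endodermis, at -0.12 ± 0.030, AP3, a floral organ gene, at -0.56 ± 0.10, and LEC2, a regulator of seed maturation, at -0.52 ± 0.098. These 4 were named after their values were seen. AP3 was well above background on only 1 mutant array. Its call was lost with trended and robust moderation (adjusted p = 0.081, limma). The call of LEC2 was lost without wild type array 1 (adjusted p = 0.06), and that of SCR without wild type array 1 or 2 or Atino80-5 array 2 or 3. Of the 6 leaf markers 0 were called by limma, with 1, GAPB, lower at an unadjusted p under 0.05. GAPB and RCA, of photosynthetic carbon fixation, had log2 differences of -0.16 and -0.17 (adjusted p = 0.052 and 0.13, limma). The summed scaled signal of all 6 leaf markers was 747 to 748 in wild type and 706 to 726 in Atino80-5. The part of organ composition in the JAZ changes was not tested.

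The genes with a symbol whose values over the 5 arrays lay closest to the median profile of the JAZ genes were NEK3, CER7, NST-K1, HT1 and CHL-CPN10, among 9218 ranked. Their root mean squared differences from that profile were 0.0096 to 0.014 on the log2 scale, and their log2 changes were 0.26 to 0.28. These genes were picked for that closeness, so the likeness of their changes is no separate result.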

How the data were processed

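Per the file headers, the deposited processed intensity of each spot was background-subtracted and detrended within the array by Agilent Feature Extraction 10.7.3.1, with no scaling between arrays; the submitters' processing notes give version 9.1. The authors' value table holds log2 values, read from the values as quantile normalized, with column medians of 9.6208 to 9.6216, and served as an alternative. Its rows are not centred.

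The 1417 control spots and 7 to 14 outlier spots per array were left out, and no probe spot was saturated. Spots of a probe were averaged as log2, and each array's 75th percentile was subtracted. Probes well above background on at least 2 arrays were kept (35190). Of all probes, 34285 matched 1 locus of the RefSeq table of assembly TAIR10.1. A gene took its probe with the highest mean. Probe sequences were not used here, so close relatives could share signal. Genotypes were compared with limma 3.58.1 in R 4.3.3 (lmFit, eBayes) over all genes, with Benjamini-Hochberg adjustment and a threshold of 0.05; 3 residual degrees of freedom limit the precision. The code was tested on simulated data. The files hold no mean spot signal, so normexp (offset 50) used the median signals.

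"At least N-fold" divides the brighter genotype's mean by a floor: on each dim array, the dimmest signal that still counted as well above background, or the probe's own value where that was higher. The JAZ genes, lists and tests were chosen with earlier results of these data known. The genes named are INO80, the JAZ genes, every called gene of the 6 jasmonate lists, the 2 genes of each other list with the smallest p, and the 5 genes nearest the JAZ median profile. Other genes of these lists and neighbours of JAZ genes were named after their values were seen. Alternatives were normexp, quantile normalization, median scaling, no filter, a filter on all 5 arrays, the mean of probes, trended and robust moderation, array weights, slide and replicate number as blocks, the authors' table and leaving out each array.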

Additional observations from a re-analysis of the deposited data

How the results depend on the processing

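Under 16 alternatives none of the 10 JAZ genes changed direction, and 6 to 9 were called higher and 1 lower. The 16 are not separate checks of direction. Without the filter, with the stricter filter and with trended and robust moderation, every JAZ log2 change stayed as reported. The mean of probes altered only the JAZ genes with paired probes. The slide block, the replicate block and leaving out the mutant array of slide 2 gave the same JAZ log2 changes as each other. JAZ2 lost its call in 4 alternatives and JAZ3 in 2, and JAZ9 gained one in 3. Called genes of the 6 jasmonate lists (40) kept their direction, and 16 of them, with changes of at most 0.37 on the log2 scale, lost their call in at least 1. The count of jasmonate list genes called lower, 17, was 9 with the replicate block, and 8 to 16 with single arrays left out; 23 were called higher, or 18 to 22 with single arrays left out. The cause was not tested. Whether replicate numbers pair the samples is not known here. Deviations of same-numbered arrays correlated at 0.038 and 0.0051 across genes. This cannot decide it, since the deviations of the 2 wild type arrays mirror each other. With the replicate block 7 JAZ genes were called higher, and JAZ2 lost its call (0.14, adjusted p = 0.089). Without wild type array 1 or 2 the other INO80 probe became the brighter and the gene's log2 change turned to 1.95 or 1.86; over all single arrays left out it ranged from -7.38 to 1.95. With 1 wild type array left, that array is assumed to vary like the mutant arrays. With median scaling, which lowered changes by a median of 0.059, 42.9% of all calls were higher, against 53.8%. Over all genes 15231 were called, and 11219 to 14542 with single arrays left out. JAZ8 and JAZ5 had the dimmest probes of the 10 in wild type, though both were well above background on every array. With normexp their log2 changes were 1.67 and 1.02. The offset of 50 added there shrinks changes of dim probes by itself, so these values do not measure how far background limits them.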

Other observations

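The nearest protein-coding gene on each side of each JAZ gene was taken in the order of the RefSeq annotation, which gave 20 neighbours, of which 18 were tested. Of these, 3 were higher, 6 lower and 9 not called, where 30.7% of all genes were higher and 26.4% lower, with a median log2 change of -0.0067. Beside JAZ8, AT1G30130 fell by 0.14 ± 0.036 (adjusted p = 0.026, limma). Beside JAZ5, UBP1B and AT1G17400 had log2 differences of -0.014 and 0.029 and were not called. AT2G34610 beside JAZ7 rose by 1.30 ± 0.066 and AT1G19190 beside JAZ1 rose by 0.84 ± 0.055 (adjusted p = 0.0002 and 0.0004, limma). AIP2, next to JAZ12 and known as a ubiquitin ligase gene of abscisic acid signalling, fell by 0.75 ± 0.060 (adjusted p = 0.00069, limma). These genes were named after their values were seen. Of the 10 JAZ genes, 6 lie on chromosome 1, 2 on chromosome 5 and 1 each on chromosomes 2 and 3.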
